A study of Mus musculus with 10 samples.

Results

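The genes described here are 9 genes of the Ras and ERK pathway, chosen by symbol from the 24452 named genes that were counted. They are the Ras genes *Hras* and *Nras*, the Ras exchange factor *Rasgrp1*, the ERK phosphatase genes *Dusp4*, *Dusp5* and *Dusp6*, the Sprouty genes *Spry2* and *Spry4*, and the ETS transcription factor gene *Etv5*. All 9 were in the file and all 9 passed the filter on low counts, among 15543 genes tested. RNA was sequenced from treated, nontumoral, full-thickness back skin of 5 WT mice and 5 littermate mice with the knockin allele labelled TTP delta ARE, written Zfp36ΔARE below, all of the C57BL/6 strain and without a stated number of knockin copies, with 1 library per mouse. This allele lacks AU-rich instability elements in the 3′-untranslated region of *Zfp36*, the gene that encodes tristetraprolin (TTP), in every cell of the animal. Both groups received the same treatment, 1 topical dose of 400 nmol of the mutagen DMBA at 7 weeks of age, and then 10 nmol of the phorbol ester TPA at each application for 20 weeks, so the data hold no untreated skin. The comparison asks whether skin with more *Zfp36* mRNA differed from WT skin in the transcripts of the pathway that DMBA mutates and TPA activates.

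Ras proteins are small GTPases that pass a signal from growth factor receptors to the RAF, MEK and ERK kinases when they bind GTP. DMBA typically changes a codon of *Hras* in mouse skin, and TPA activates protein kinase C and RasGRP exchange factors such as RASGRP1, which load Ras with GTP. Active ERK induces its own inhibitors, among them the DUSP phosphatases, which remove phosphate from ERK, and the Sprouty proteins, which act nearer the receptor, so the transcripts of these genes are widely read as a sign of ERK activity. The counts give the level of each transcript and not its sequence, and mutant alleles were not analysed here.

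Because TTP binds AU-rich elements whose core is the pentamer ATTTA, the longest annotated 3′-untranslated region of each gene (GENCODE M21 on GRCm38, which is mm10) was searched on the strand of the gene. *Hras* (chromosome 7, 141189105 to 141194005, minus strand) had 0 ATTTA pentamers in 2096 bases, although 92% of 3043 regions of comparable length (0.8 to 1.25 times) held at least 1. *Dusp5* (chromosome 19, 53529109 to 53542431, plus strand) had 1 in 1109 bases, *Dusp6* (chromosome 10, 99263231 to 99267489, plus strand) had 1 in 1190, and *Dusp4* (chromosome 8, 34807297 to 34819894, plus strand) had 2 in 1111, where 78.8% to 80.5% of comparable regions held at least 1. *Nras* (chromosome 3, 103058285 to 103067914, plus strand) had 5 in 3727 bases. The longer core TATTTAT was found in *Rasgrp1* (chromosome 2, 117279993 to 117343001, minus strand), *Spry2* (chromosome 14, 105891947 to 105896819, minus strand), *Spry4* and *Etv5* (chromosome 16, 22381309 to 22439719, minus strand), with 1, 2, 4 and 1 matches. Among regions of comparable length, at least 1 match stood in 48.5% for *Rasgrp1*, 20.9% for *Spry2*, 58.2% for *Spry4* and 43.5% for *Etv5*, and over all 20971 genes with an annotated region in 27.5%. These matches overlap ATTTA pentamers, and a match describes the letters of the region and not binding. The lines below show examples of these sites in their sequence context, 5′ to 3′ on the strand of the gene, with the core in capitals, and such sites are common in regions of these lengths. The first 4 hold TATTTAT and the last 2 are the only pentamers of *Dusp5* and *Dusp6*.
Rasgrp1, chr2:117280007-117280031: tgtgtctcaTATTTATatcataaaa
Spry2 first site, chr14:105892094-105892118: tgtaaagaaTATTTATttgaagttt
Spry2 second site, chr14:105892055-105892079: aaaaaagaaTATTTATtttaagagg
Etv5, chr16:22381764-22381788: tcataagcaTATTTATagctttcta
Dusp5, chr19:53541980-53542004: ctttggtgtgATTTAaaaaaaaaaa
Dusp6, chr10:99267422-99267446: ttgagctggaATTTAttataagaat

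Total counts per library ran from 21638400 to 32583217 in WT and from 19595035 to 36419573 in Zfp36ΔARE skin. The targeted gene was checked first, and *Zfp36* was 2.52-fold higher in Zfp36ΔARE skin, at 4196 to 6134 normalized counts against 1824 to 2496 in WT. Libraries stood apart in 2 ways that touch the results below. Y-linked transcripts (*Ddx3y*, *Eif2s3y*, *Kdm5d* and *Uty*) summed to 3349 to 4262 counts in Zfp36ΔARE replicates 2 to 5 and to at most 1 count in the other 6 libraries, so genotype and sex cannot be fully told apart. The hair shaft score, the mean log2(CPM + 1) of 10 hair keratins, was 2.44 and 5.21 in WT replicates 3 and 1, 7.71 to 8.14 in the other 3 WT mice and 8.89 to 10.28 in Zfp36ΔARE mice. Epidermal transcripts were abundant in every library, with basal keratinocyte markers such as *Krt5* and *Krt14* summing to 213781 to 332707 normalized counts in WT and 182614 to 353841 in Zfp36ΔARE skin. Their median log2 fold change was -0.17. Suprabasal keratinocyte markers summed to 339751 to 502643 in WT and 193264 to 411560 in Zfp36ΔARE skin. All 5 tested had log2 fold changes below 0, from -0.93 to -0.35, with a median of -0.39. In such whole tissue, fewer cells of a type and less RNA per cell cannot be told apart.

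Of the 9 genes, *Hras* and *Dusp5* rose in Zfp36ΔARE skin and none of the 9 passed the test in the lower direction. The test was edgeR's quasi-likelihood test, with p adjusted by Benjamini-Hochberg over all tested genes and calls made at 0.05. By it 2 of 9 genes (22.2%) were called, where 34.3% of all tested genes were called, 15.3% higher and 19.1% lower in Zfp36ΔARE skin. At an unadjusted p under 0.05 there were 3 higher and 1 lower. With the further condition of a fold change over 2, 0 of 9 were called with edgeR, DESeq2 and limma-voom (0 at an unadjusted p under 0.05 as well), against 8.31% of all tested genes (1.67% higher and 6.64% lower). The median log2 fold change was 0.23 over the 9 genes and 0.0076 over all tested genes. The groups did not overlap for 1 of the 9, against 23.1% of all tested genes. The share called among the 9 was near or below that of all genes, and both changes that passed were under 2-fold.

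**Figure D1:**
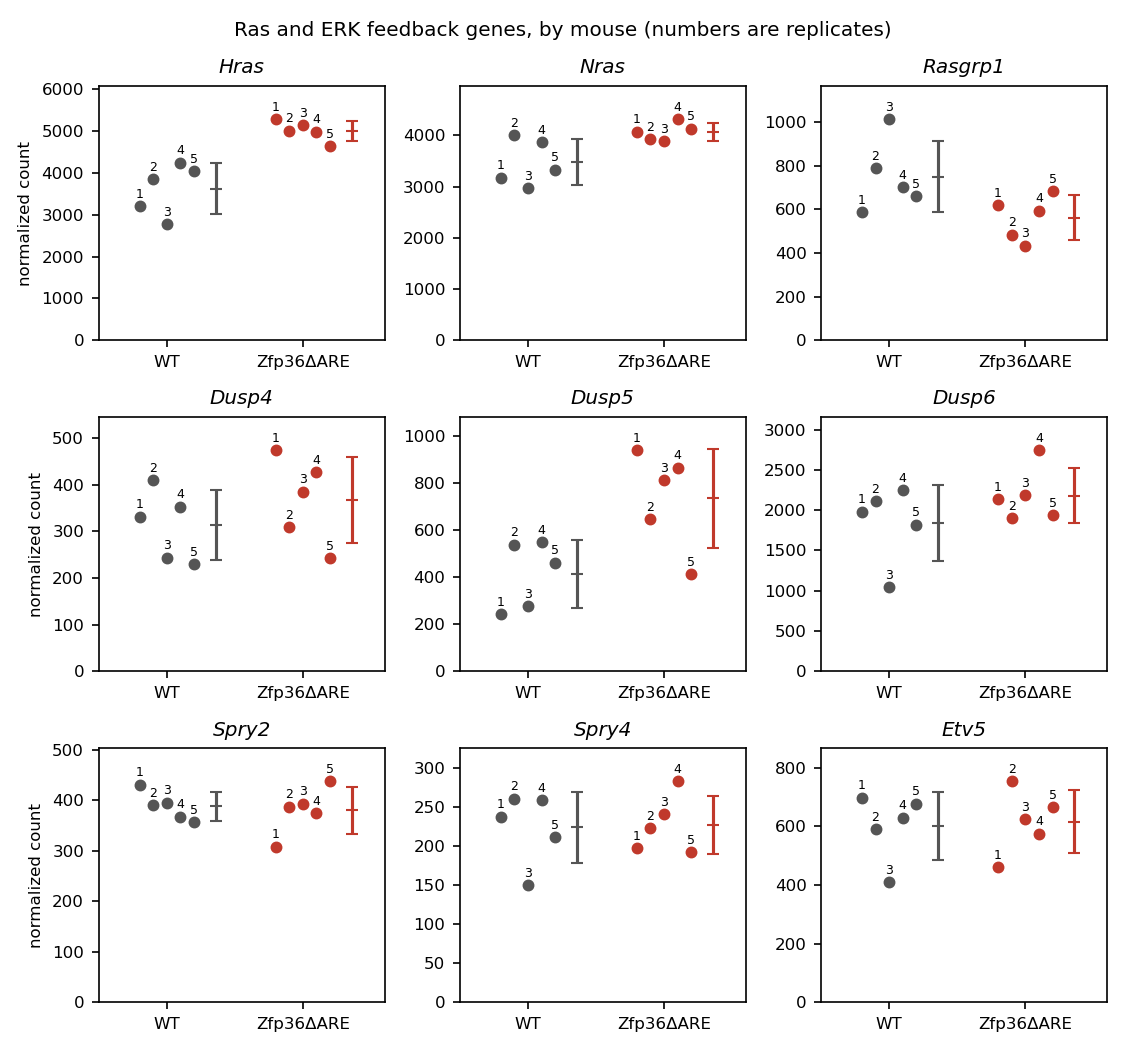
Normalized counts (y axis, from 0) of the 9 genes in each of 5 WT (grey) and 5 Zfp36ΔARE mice (red), 1 point per mouse with its replicate number, and the mean with SD beside the points. *Hras* lies between 2770 and 4241 in WT and between 4626 and 5274 in Zfp36ΔARE skin, without overlap, while in the other 8 genes the groups overlap.

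*Hras* encodes the Ras protein most often mutated in this skin tumor model. It had 3197, 3848, 2770, 4241 and 4041 normalized counts in WT replicates 1 to 5 and 5274, 5002, 5129, 4973 and 4626 in Zfp36ΔARE replicates 1 to 5. Each Zfp36ΔARE mouse was above each WT mouse, as for 11.2% of all tested genes in this direction. The means were 3619 ± 616 and 5001 ± 241 (SD, n = 5 each), which is 1.38-fold (log2 fold change 0.47, standard error 0.11, 95% interval 0.21 to 0.72, edgeR adjusted p = 0.013). The exact two-sided permutation test gave p = 0.0079, and with 5 mice per group no smaller value is possible. The spread was wider in WT, where it was 17% of the mean, than in Zfp36ΔARE skin, where it was 4.82%.

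The WT mice with the least *Hras*, replicates 3 and 1, were the mice with the lowest hair shaft scores, and the order of the 5 WT mice was the same for both measures. Without these 2 mice the log2 fold change was 0.31 and still passed (adjusted p = 0.016). The remaining WT mice, at 3848 to 4241, lay below each Zfp36ΔARE mouse, which leaving out the 2 lowest WT mice could not change. With the hair shaft score as a covariate it was 0.17 (adjusted p = 0.29), with the skeletal muscle score 0.19 (adjusted p = 0.49), and with a term for Y-linked counts 0.54 (adjusted p = 0.19), all from edgeR. The single Zfp36ΔARE mouse without Y-linked counts, replicate 1, had the highest level of the 10, 5274. Hair scores did not overlap between the genotypes, so their parts cannot be told apart in that fit. The gene whose profile over the 10 libraries was nearest to that of *Hras*, among 13690 candidates, was *Tmem54* (root mean square difference 0.052 on the centred log2 scale), itself at a log2 fold change of 0.49 (adjusted p = 0.0085).

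*Nras*, its close relative, had 3176, 4006, 2969, 3871 and 3331 normalized counts in WT and 4073, 3927, 3883, 4314 and 4129 in Zfp36ΔARE mice, in replicate order. All Zfp36ΔARE mice were above the WT median of 3331, but WT replicate 2 lay within their range. The log2 fold change was 0.23 (standard error 0.086, 95% interval 0.03 to 0.43), which did not pass in edgeR (adjusted p = 0.061). It did not pass in limma-voom (0.24, adjusted p = 0.051) and did in DESeq2 (0.23, adjusted p = 0.038). The permutation test on this single gene gave an exact p = 0.032, and 46.5% of all tested genes had a permutation p under 0.05. As for *Hras*, WT replicates 3 and 1 were the lowest of the 10 libraries. Without both, the log2 fold change of *Nras* was 0.12 (edgeR adjusted p = 0.25). The nearest profile was that of *Map3k7* (root mean square difference 0.047).

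Per length of transcript, *Hras* was the most abundant of the 9 genes, at 138 ± 21.1 TPM in WT and 171 ± 9.81 in Zfp36ΔARE skin (SD, n = 5 each). *Nras* was at 67.3 ± 7.84 and 70.9 ± 6.07 TPM, below *Hras* in 10 of 10 libraries. TPM was not scaled by TMM, and in TPM both genes differed less between the groups than in normalized counts. The ratio of *Hras* to *Nras* TPM ran from 1.84 to 2.39 in WT and from 2.20 to 2.60 in Zfp36ΔARE skin, so the groups overlapped. Fragments that match both a Ras gene and its relative may have been split in a way that is not given in the sources used here. *Dusp6* came next at 57.1 ± 14.4 TPM in WT and overlapped *Nras*, and *Dusp5* followed at 31.0 ± 10.3 with a WT range that overlapped that of *Dusp6*. *Spry2* (16.2 ± 1.6), *Etv5* (13.7 ± 2.7), *Rasgrp1* (12.8 ± 2.79) and *Dusp4* (11.2 ± 2.72) formed a run in which neighbours overlapped, and *Spry4*, at 4.23 ± 0.85 TPM, was below *Dusp4* in 10 of 10 libraries.

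*Rasgrp1* encodes an exchange factor that binds diacylglycerol and phorbol esters such as TPA and is well known from T cells. WT replicates 1 to 5 had 587, 789, 1013, 702 and 660 normalized counts, and Zfp36ΔARE replicates 1 to 5 had 619, 484, 434, 594 and 682. All 5 Zfp36ΔARE mice were below the WT median of 702, and the groups overlapped. The log2 fold change was -0.41 (standard error 0.16, 95% interval -0.79 to -0.04) and did not pass (edgeR adjusted p = 0.070, exact permutation p = 0.063). Of the fits that left out 1 library, it passed in 1, without Zfp36ΔARE replicate 5 (-0.50, edgeR adjusted p = 0.048), and not in the other 9. Without WT replicate 3 it was -0.28 (edgeR adjusted p = 0.15). Markers of T cells overlapped between the groups, at 602 to 1090 summed normalized counts in WT and 615 to 822 in Zfp36ΔARE skin over 8 of 9 genes found in the file, with a median log2 fold change of -0.19. The highest library for both *Rasgrp1* and these markers was WT replicate 3, which was also highest for mast cell, muscle, adipocyte, fibroblast and endothelial markers. WT replicate 1 had the next highest mean log2(CPM + 1) of the T cell markers, 2.20 against 2.54, but the lowest *Rasgrp1* of the WT mice. The part of T cell content in the difference was not tested. The nearest profile was that of *P2ry1* (root mean square difference 0.067, log2 fold change -0.36).

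Of the 7 other exchange factor genes, whose products act on small GTPases by releasing GDP, 4 fell and 0 rose in edgeR. Over all tested genes, 19.1% were called lower and 15.3% higher. At an unadjusted p under 0.05 the counts were also 4 and 0, and 3 of the 7 did not pass. *Rasgrp4* fell from 470 ± 115 to 211 ± 15.7 normalized counts (log2 fold change -1.15, standard error 0.16, adjusted p = 0.0040) and *Rasgrp3* from 401 ± 176 to 194 ± 23.7 (-1.05, standard error 0.24, adjusted p = 0.012), both without overlap between the groups. *Rasgrf2* and *Rasgrp2*, named after their values were seen, were at -0.86 and -0.81 (adjusted p = 0.015 and 0.016). *Sos2*, with the most counts of the list and a general exchange factor recruited through GRB2, was at -0.04 (adjusted p = 0.63). *Rasgrp4* is best known from mast cells. Mast cell markers moved with it, with 6 of 8 lower and 1 higher (*Kit*, which melanocytes also express) and summed levels of 5989 to 15141 normalized counts in WT against 3319 to 4198 in Zfp36ΔARE skin, and none of the 8 was at 0 in any library. Their part in the fall was not tested.

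Among the ERK phosphatases, *Dusp5* rose. DUSP5 is a nuclear phosphatase specific for ERK, and ERK induces its gene. The gene had 244, 540, 278, 549 and 463 normalized counts in WT replicates 1 to 5 and 941, 646, 813, 867 and 413 in Zfp36ΔARE replicates 1 to 5. Of the Zfp36ΔARE mice, 4 lay above every WT mouse, while replicate 5 lay below 3 of the WT mice, so the groups overlapped. The means were 415 ± 145 and 736 ± 211 (SD, n = 5 each), which is 1.77-fold and the largest of the 9 (log2 fold change 0.83, standard error 0.28, 95% interval 0.19 to 1.47, adjusted p = 0.042 from edgeR, exact permutation p = 0.040).

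This call was fragile. It was lost in 7 of 10 fits that left out 1 library (without WT replicates 1, 3 or 5 or Zfp36ΔARE replicates 1, 2, 3 or 4), with log2 fold changes from 0.68 to 0.97 and adjusted p from 0.022 to 0.088 over the 10 fits. Without both WT replicates 1 and 3, the lowest of the 10 libraries for *Dusp5* as for hair keratins, the log2 fold change was 0.51 (edgeR adjusted p = 0.17), and with the hair shaft score as a covariate 0.29 (adjusted p = 0.71). The gene model used for counting was 1155 bases long, the same as the coding sequence, so the 3′-untranslated region was not counted. An annotated antisense gene, AC137853.2, covers 338 of these coding bases, and since it is not given whether counting used strand, fragments of the 2 genes cannot be told apart there. The nearest profile was that of *Cpne5* (root mean square difference 0.12), at a log2 fold change of 0.93 (adjusted p = 0.033).

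*Dusp6*, whose product is the main cytoplasmic ERK phosphatase and a widely used readout of ERK activity, did not pass. It had 1046 to 2248 normalized counts in WT (1841 ± 472) and 1901 to 2744 in Zfp36ΔARE skin (2180 ± 338), with WT replicate 3 lowest by far. The log2 fold change was 0.24, with a 95% interval of -0.19 to 0.67 (edgeR adjusted p = 0.32). *Dusp4*, a nuclear phosphatase of ERK and other kinases, had 230 to 410 normalized counts in WT and 243 to 474 in Zfp36ΔARE skin, and its log2 fold change was 0.23 (95% interval -0.25 to 0.71, edgeR adjusted p = 0.41). The intervals of both include 0 and the value for *Hras*. The nearest profile to *Dusp6* was that of *Phlda1* (root mean square difference 0.13), which stands in the list of ERK target genes below, and that to *Dusp4* was *Sh3tc2* (0.12).

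**Figure D2:**
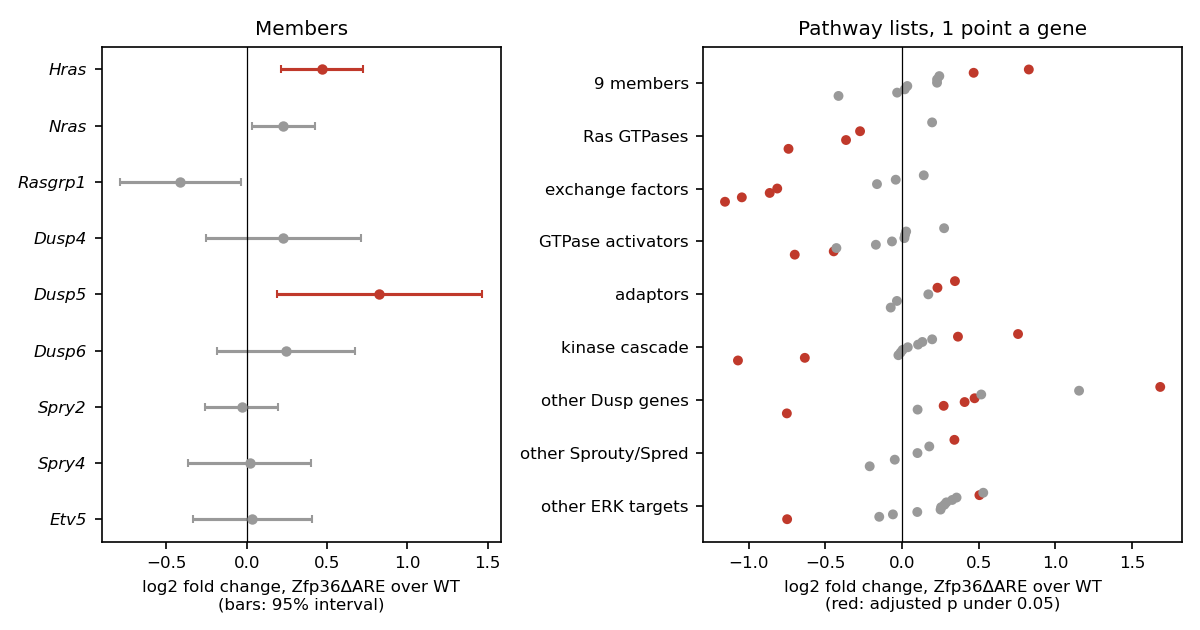
Log2 fold changes of Zfp36ΔARE over WT skin (x axes). Left, the 9 genes with 95% intervals, of which *Hras* (0.47) and *Dusp5* (0.83) passed an adjusted p of 0.05 (red). Right, each point is 1 tested gene of the 9 or of a pathway list (rows), red where it passed. The exchange factors reach -1.15 (*Rasgrp4*) and the other Dusp genes 1.68 (*Dusp14*).

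Of the 8 other *Dusp* genes examined, 4 rose and 1 fell, where 15.3% of all tested genes were called higher and 19.1% lower. *Dusp14*, whose product acts on kinases of the MAPK and TAK1 pathways, rose from 3138 ± 2036 to 10079 ± 3720 normalized counts (log2 fold change 1.68, standard error 0.49, edgeR adjusted p = 0.027). It was lowest, at 976 and 1171, in WT replicates 3 and 1, the low-hair libraries, and the highest, at 15408, in Zfp36ΔARE replicate 3, which had the highest hair shaft score. *Dusp1*, the immediate-early phosphatase of p38 and JNK, fell from 1554 ± 343 to 924 ± 285 (-0.75, standard error 0.22, edgeR adjusted p = 0.026).

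The Sprouty genes and *Etv5* were at nearly the same level in both groups. *Spry2*, whose product inhibits receptor tyrosine kinase signalling upstream of Ras, had 357 to 431 normalized counts in WT (388 ± 28.6) and 308 to 438 in Zfp36ΔARE skin (380 ± 46.9). Its log2 fold change was -0.03, with a 95% interval of -0.26 to 0.20 (edgeR adjusted p = 0.82), the steadiest of the 9 among WT mice. The lowest library was Zfp36ΔARE replicate 1, at 308, which was below all WT mice. *Spry4*, a further member of this family (chromosome 18, 38586247 to 38601415, minus strand), had 150 to 261 normalized counts in WT and 193 to 283 in Zfp36ΔARE skin, and its log2 fold change was 0.02 (95% interval -0.37 to 0.40, edgeR adjusted p = 0.95). *Etv5*, an ETS factor induced by FGF and ERK signals, had 409 to 698 and 462 to 754 normalized counts, with a log2 fold change of 0.03 (95% interval -0.34 to 0.40, edgeR adjusted p = 0.88). The lowest WT library for both *Spry4* and *Etv5* was again replicate 3. These intervals do not include the log2 fold change of *Hras*, 0.47, but the differences between genes were not tested. The nearest profiles were those of *Ogfrl1* for *Spry2* (root mean square difference 0.062), *Lrrc59* for *Spry4* (0.12) and *Dtl* for *Etv5* (0.076).

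Of the 6 related inhibitor genes, *Spred2*, whose product keeps RAF from being activated, rose from 719 ± 37.5 to 911 ± 41.8 normalized counts without overlap (log2 fold change 0.34, standard error 0.058, edgeR adjusted p = 0.0054). It was the only one of the 5 tested that passed, which is 20% against 34.3% of all tested genes. *Spred1* was at -0.05 (adjusted p = 0.69), and *Spry3* had 0 counts in all libraries and was not tested.

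Over the whole pathway, 61 of 63 listed genes were tested, and 10 rose and 13 fell in edgeR, which is 37.7% against 34.3% of all tested genes. The median log2 fold change was 0.04, against 0.0076 over all genes, and the groups did not overlap for 13 of the 61 genes, where 23.1% of all tested genes did not overlap. Of these 61, 4 also passed with a fold change over 2, where 8.31% of all tested genes did. The counts of 4 and 13 were not above the background, and the share called, 37.7%, was close to it. *Ksr2*, with 23 counts in total, was not tested.

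Of the 4 Ras GTPase genes listed beside the 9, 3 fell and 0 rose in edgeR. Over all tested genes, 19.1% were called lower and 15.3% higher. *Mras*, which helps to activate RAF with SHOC2, fell from 331 ± 56.3 to 198 ± 27.4 normalized counts without overlap (log2 fold change -0.74, standard error 0.14, edgeR adjusted p = 0.0071), and *Rras* fell as well (-0.37, adjusted p = 0.017).

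Of the 9 GTPase activating proteins, which switch Ras off, 2 fell and 0 rose in edgeR (1 rose at an unadjusted p under 0.05). This is 22.2% called, against 34.3% of all tested genes (19.1% lower and 15.3% higher). *Rasa3* fell from 2365 ± 482 to 1456 ± 173 normalized counts (log2 fold change -0.70, adjusted p = 0.0075) without overlap, *Rasal1* was at -0.45 (adjusted p = 0.046), and *Dab2ip* was at 0.01 (adjusted p = 0.89). Of the 5 adaptors, 2 rose and 0 fell, which is 40% called, against the same 34.3%. *Ptpn11*, the gene of the phosphatase SHP2 that carries receptor signals to Ras, rose from 6009 ± 736 to 7629 ± 349 without overlap (0.34, adjusted p = 0.016), and *Frs2*, the docking protein of FGF receptors, was at 0.23 (adjusted p = 0.049).

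In the kinase cascade, 2 of 11 tested genes rose and 2 fell, which is 36.4% called against 34.3% of all tested genes. *Braf* rose from 2138 ± 584 to 3611 ± 400 normalized counts without overlap (log2 fold change 0.76, standard error 0.18, edgeR adjusted p = 0.014), and *Rps6ka2*, an RSK kinase gene downstream of ERK, fell from 689 ± 376 to 327 ± 50.3 (-1.07, standard error 0.30, adjusted p = 0.023), with WT replicate 3 highest at 1331. Of 12 further ERK target genes, 1 rose and 1 fell, which is 16.7% called, below the 34.3% of all tested genes. *Egr3*, an immediate-early transcription factor gene, rose from 3971 ± 655 to 5632 ± 338 without overlap (0.50, standard error 0.11, adjusted p = 0.010), and *Etv1*, of the same ETS subfamily as *Etv5*, fell from 84.5 ± 23.9 to 50.1 ± 14 (-0.75, standard error 0.26, adjusted p = 0.046).

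**Figure D3:**
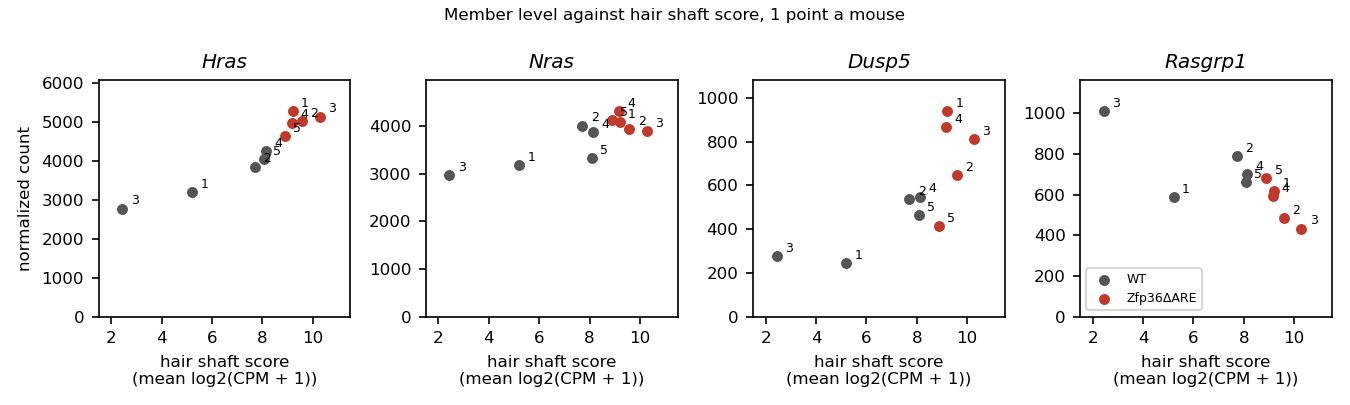
Normalized counts (y axes, from 0) of *Hras*, *Nras*, *Dusp5* and *Rasgrp1* against the hair shaft score (x axes, mean log2(CPM + 1) of 10 hair keratins), 1 point per mouse with its replicate number. WT replicates 3 and 1, at scores of 2.44 and 5.21, hold the lowest values of *Hras*, *Nras* and *Dusp5*, and all Zfp36ΔARE mice (red) lie at scores of 8.89 or more.

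WT replicates 1 and 3 were the lowest of the 10 libraries for 3 of the 9 genes, *Hras*, *Nras* and *Dusp5*, and WT replicate 3 alone was lowest for 5 of the 9. Other tissue markers moved with the groups too. Skeletal muscle markers summed to 249314 to 1223040 normalized counts in WT and to 144167 to 313421 in Zfp36ΔARE skin (9 of 10 genes lower), with WT replicate 3 the highest of all. Macrophage markers were lower in 10 of 10 genes, endothelial markers in 8 of 8, adipocyte markers in 6 of 8 and fibroblast markers in 5 of 8. Over all tested genes 19.1% were called lower. All 7 proliferation markers were at an edgeR adjusted p of 0.096 or more, with a median log2 fold change of 0.31. Each of these marker genes was above 0 in every library. Apart from the covariate fits given here for hair and muscle, the part of these tissues in the differences was not tested.

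**Figure D4:**
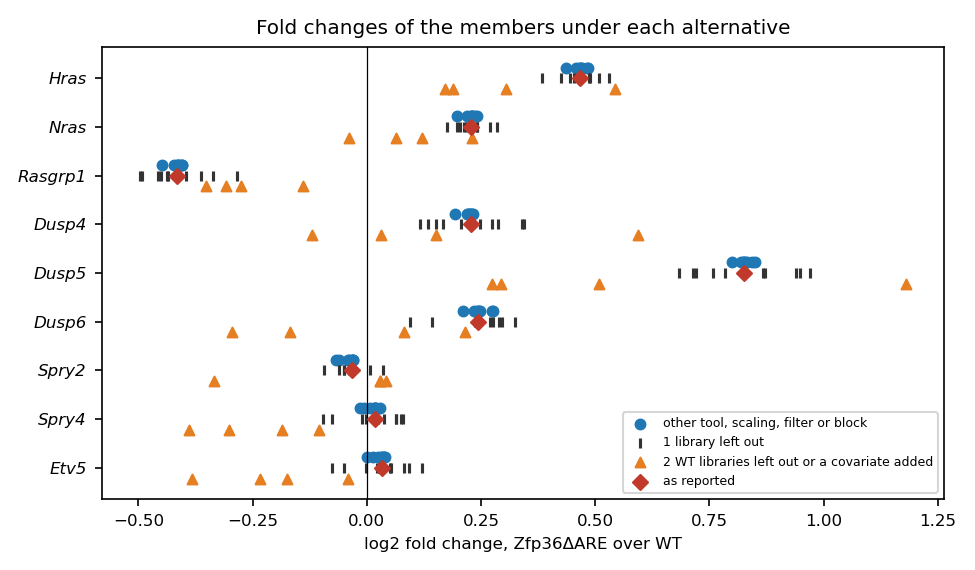
Log2 fold change of Zfp36ΔARE over WT skin (x axis) for each of the 9 genes under every alternative, with the reported value as a red diamond, other tools, scalings, filters or the replicate block as blue circles, fits without 1 library as ticks, and fits without 2 WT libraries or with a covariate as orange triangles. *Hras* and *Dusp5* stay above 0 in all of them, and the covariates move values most, *Dusp5* from 0.27 to 1.18.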

How the data were processed

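Per the labels and the study's methods, the authors discarded reads with a low mean score, mapped those kept onto mm10 by STAR 2.5.2b, counted fragments per gene with featureCounts (Subread 1.5.0-p1) and deposited raw counts without normalization. The settings for strand and for reads matching several genes are not given in the sources used here. Rows without a gene name numbered 2, held 7.38e-05% of counts and were left out. TMM factors were computed from the deposited counts with edgeR 4.0.16 (R 4.3.3), which then applied filterByExpr, fitted the robust quasi-likelihood model with genotype as the only term and adjusted p by Benjamini-Hochberg over 15543 genes, with calls at 0.05. The study used DESeq2, which served here as an alternative (1.42.0), as did limma-voom (limma 3.58.1). Normalized counts are counts scaled by TMM to the average effective size of the 10 libraries, and CPM uses the same scaling. TPM was computed from the deposited counts and gene model lengths. Standard errors are the log2 fold change divided by the square root of F, and 95% intervals use 8 residual degrees of freedom. Exact two-sided permutation tests compared mean log2(CPM + 1). Controls were littermates, but which mice share a litter is not given, and p-values measure the spread between these mice. The most alike libraries of a group differed by 21.7 times the sampling variance of their counts, so each was counted as 1 replicate. The scripts were tested on simulated data.

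The members and the gene lists were chosen with earlier results of these data known. Genes named are the 9 members, *Zfp36*, from each pathway list the 2 called genes with the largest change and the gene with the most counts, and for each member the gene (mean normalized count at least 50) with the nearest centred profile. Some genes that this rule names are not reported here. Alternatives are listed in the closing section.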

Additional observations from a re-analysis of the deposited data

Results flagged for a closer look

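For 28 named genes, the libraries of each genotype were searched for a mouse standing apart, which made 56 groups. This found 1, where chance gives about 2.8. *Rasgrp3* in WT replicate 3 was at 708 normalized counts against 277 to 391 in the other WT mice, and the distance to its nearest neighbour was 0.734 of the range.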

How the results depend on the processing

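Leaving out both low-hair WT libraries and the terms for Y-linked counts, hair and muscle were added after seeing the data. *Hras* was higher and *Dusp5* higher in each of 22 alternatives, and *Hras* passed in 19 and *Dusp5* in 9 of them. The count of 2 members became 1, *Hras*, with no filter, with the replicate block and without both low-hair WT libraries. It became 0 with the term for Y-linked counts (edgeR, 3 at an unadjusted p under 0.05), with the hair shaft score (1 unadjusted) and with the muscle score (0 unadjusted). Of members and pathway genes together, 25 were called, which became 13 with the block, 14 without both low-hair libraries, 0 with the Y-linked term (21 unadjusted), 1 with the hair score and 0 with the muscle score (7 unadjusted). All 15543 genes gave 0, 30 and 2 calls with the 3 terms. With 1 library left out, 1 to 3 members and 16 (without WT replicate 1) to 26 of both lists were called, and 1 to 3 members passed the permutation test, against 3, as 1 did without both low-hair libraries. With raw library sizes *Rasgrp1* (exact p = 0.032) passed it in place of *Nras* (exact p = 0.095). *Nras* passed with DESeq2 and without WT replicates 2 (0.29) or 4 (0.27).

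Same-numbered mice had correlations of -0.36 to 0.0038 in their deviations and none matched its own number best. By this measure the replicate numbers showed no pairing of the mice. It cannot exclude pairing, because differences in hair and muscle between the libraries may hide it. With the block, *Dusp5* was at 0.84 (adjusted p = 0.097).

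Signs changed only for members that were not called. *Spry4* was below 0 with limma-voom (-0.0060), upper-quartile scaling (-0.016), without both low-hair libraries (-0.11), with the Y-linked term (-0.19), hair (-0.30) and muscle (-0.39). *Etv5* was at -0.041, -0.38, -0.23 and -0.18 in the last 4 of these, and *Spry2* at 0.029 without the low-hair libraries, 0.042 with hair and 0.030 with muscle. *Dusp6* was at -0.17 with hair and -0.29 with muscle, where *Nras* was at -0.038 and *Dusp4* at -0.12. With 1 library left out, *Spry4* ran from -0.096 to 0.078, *Etv5* from -0.076 to 0.12 and *Spry2* from -0.094 to 0.035. The cause was not tested.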
